A study of Mus musculus with 9 samples.

Results

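The WAVE regulatory complex and its ABI subunits were examined in haematopoietic progenitors that had lost Abi1. The genes were taken by symbol from the array's probe annotation: the ABI adaptor genes Abi1, Abi2 and Abi3, the WASF (WAVE protein) genes Wasf1, Wasf2 and Wasf3, and Cyfip2, Nckap1, Nckap1l and Brk1. All 10 were found, each on 1 probeset with exactly 1 symbol, among 30142 named genes. Cyfip1, the paralogue of Cyfip2, was not analysed here. The cells were LSK cells of mouse bone marrow, sorted as lineage-depleted cells carrying Sca-1 and c-Kit, a fraction that holds stem cells and the earliest progenitors. The Abi-1 KO group, 4 mice, was Abi1(-/-) with the Mx1-cre transgene, and the Abi-1 WT group, 5 mice, had the same floxed Abi1 alleles, Abi1(fl/fl), without Cre. Mx1 is an interferon-inducible promoter, so Cre was turned on with poly(I:C), and both groups were given its 3 injections at 8 to 9 weeks of age and studied at 12 to 14 weeks. Only KO mice carried Cre, so effects of Cre and of the deletion cannot be told apart. A whole-transcript array was run per mouse from 5 ng of total RNA, and the values were used as deposited and read as log2 signals.

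The complex joins a WASF protein, which activates the actin nucleator Arp2/3, to a CYFIP, an NCKAP1, an ABI and a BRK1 subunit. In the resting complex the activating tail of the WASF protein is held shut, and binding of the GTPase Rac to the CYFIP subunit helps to release it, which yields the branched actin of lamellipodia. Most subunits have paralogues that can take the same place. Nckap1l, also called Hem1, is the blood cell form of Nckap1, and loss of ABI1 protein lowers the stability of the other subunits in several cell types. Abi1 is also a partner of the ABL kinases.

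A gene was taken as above background where its mean exceeded the 95th percentile of 1717 olfactory and vomeronasal receptor genes, which blood progenitors are not known to use. That level was 5.64 in KO replicate 1 and 5.29 to 5.37 in the other 8 arrays, and 53.2% of all named genes exceeded it. By this measure 8 of the 10 genes gave signal. All 3 ABI genes, both NCKAP1 genes, Cyfip2 and Brk1 were above background, whereas Wasf2 was the 1 WASF gene of 3 that was. The probes of different genes differ in brightness, so the log2 signals of 2 paralogues were not set against each other. Against the 99th percentile of the receptor genes, 6 of these 8 were above in all 9 arrays, Nckap1 in all but WT replicate 5 and Abi1 in the WT arrays alone. Wasf1 and Wasf3 were above it in none.

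KO replicate 1 and WT replicate 5 stood apart from the other arrays. Their median correlations with the other arrays, across genes, were 0.986 and 0.989, against 0.993 to 0.996 for the remaining 7. All 10 measured LSK markers were above background, with Kit, the c-Kit receptor gene, at log2 signals of 13.82 to 14.58 in KO and 14.39 to 14.78 in WT. Ly6a, the gene of Sca-1, was not among the named genes. Of the 8 T and NK cell genes 2 were above background, at a list mean of 5.07 to 5.25 in KO and 4.98 to 5.21 in WT, and Cd3e, Cd4, Cd8a and Ncr1 were at or below it in every array. The neutrophil markers, 6 of 10 above background, varied: their mean log2 signal over KO replicates 1 to 4 was 7.92, 7.76, 5.74 and 6.07, beside a span of 5.34 to 6.50 in WT, with Mmp9 at or below background in every array. The 7 measured B cell markers, 4 above background, had a mean of 5.83 to 5.92 in KO and 5.54 to 5.75 in WT, with Ms4a1 and Pax5 at or below background in every array. The 6 mast cell and basophil markers, all above background, had a mean of 9.07 to 9.36 in KO and 7.97 to 9.09 in WT. Of the 8 monocyte and macrophage markers 6 were above background, at a mean of 6.98 to 7.36 in KO and 7.01 to 7.53 in WT. No marker passed the test. The limma p before adjustment was below 0.05 for 4 of 7 B cell and 3 of 6 mast cell and basophil markers. The counts were 2 of 10 for neutrophil, 1 of 10 for LSK and 0 of 8 for the T and NK cell list. For monocyte and macrophage markers it was 0 of 8, and over all genes 5.01%. The groups did not overlap for 3 B cell, 3 mast cell and basophil and 1 neutrophil marker, and for 0.856% of all genes. The part of these cells in the results below was not tested. In RNA of sorted populations, fewer cells of a type and less RNA per cell cannot be told apart.

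**Figure D1:**
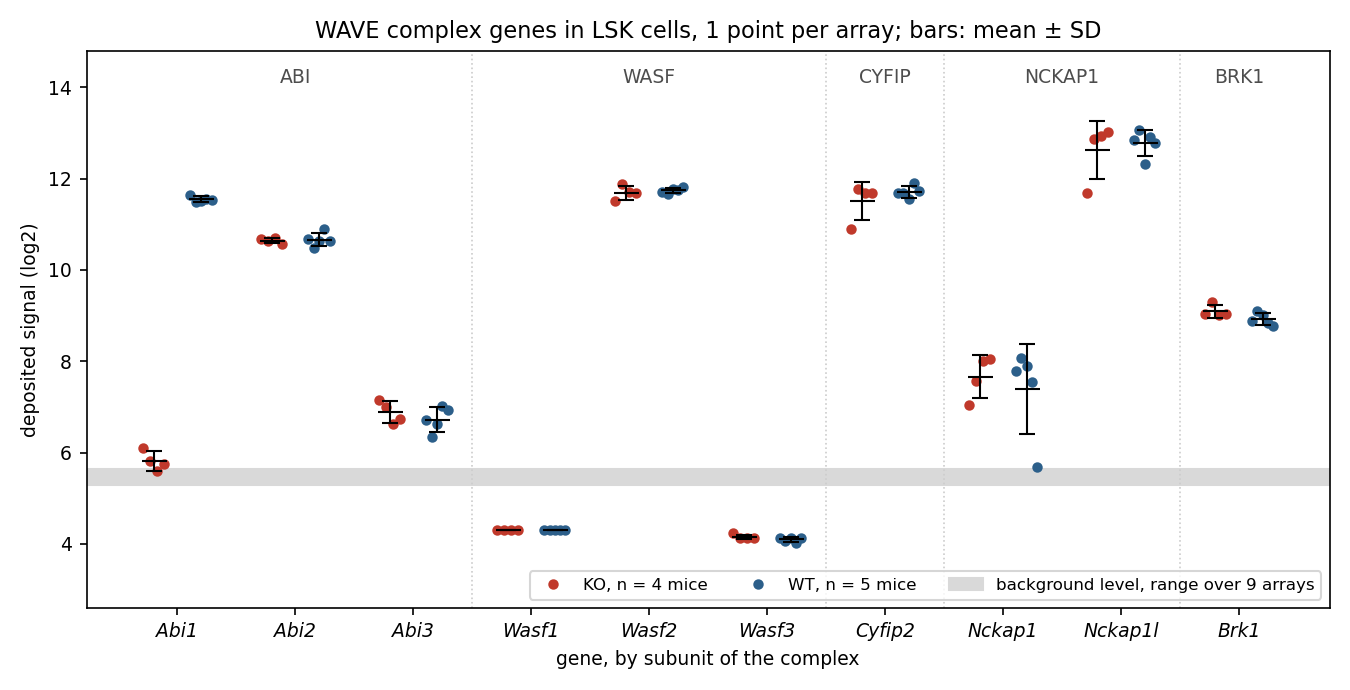
Log2 signal of each gene in the 4 KO and 5 WT arrays, with the mean and SD, grouped by the subunit that the gene encodes; the grey band is the range of the background level over the arrays. Abi1 lies at 5.59 to 6.11 in KO and 11.49 to 11.65 in WT, and Wasf1 and Wasf3 lie under the band in every array.

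Among the ABI genes, Abi1 fell in the knockout and its paralogues did not pass the test. The Abi1 probeset, TC0200003098.mm.1, gave log2 signals of 6.11, 5.82, 5.59 and 5.76 in KO replicates 1 to 4 and of 11.65, 11.49, 11.50, 11.56 and 11.53 in WT replicates 1 to 5. Every KO array was far below every WT array, and the groups did not overlap, so the labels fit the targeted gene. The difference, KO minus WT, was -5.73 on the log2 scale (SE 0.095, 95% interval from -5.94 to -5.51), which is 52.9-fold lower if the values are log2. The KO signals were near background, so this fold does not measure how much transcript remained. The difference passed over all genes (limma, adjusted p = 7.42e-08), and an exact two-sided permutation test over the 126 splits of the arrays gave p = 0.00794, the smallest that 4 against 5 allows. Abi1 was the 1 gene of all 30142 to pass, so 0.00332% of genes were called, while an unadjusted p below 0.05 was found for 5.01% (3.82% higher and 1.19% lower in KO). The KO signal exceeded the background level of its own array in 4 of 4 arrays, by 0.47, 0.46, 0.24 and 0.44 in replicates 1 to 4. Against the 99th percentile of the receptor genes, however, it was above in 0 of 4 KO arrays. KO replicate 1 had both the highest Abi1 signal and the highest background level of the KO arrays, and its part in the result was not tested. In the GRCm38.p6 annotation Abi1 spans chr2:22940073-23040241, and the labels do not say which exons are floxed.

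Beside the named genes, 4 probesets without a symbol in the annotation carry identifiers between those of Abi1 and of Mastl, a mitotic kinase gene that lies near Abi1 on chromosome 2. They were looked at after their values had been seen. In 3 of these 4 the KO arrays were all below the WT arrays, where 0.37% of 65956 non-control probesets showed that pattern. TC0200003102.mm.1 had log2 signals of 5.62, 5.27, 5.44 and 4.62 in KO and 10.39, 9.22, 8.78, 9.48 and 10.24 in WT. Tested among all probesets, it was the only call besides Abi1 (limma, difference -4.38, SE 0.36, adjusted p = 0.0334), which makes 0.00303% called. That call ended without any single array other than WT replicate 3, with limma adjusted p from 0.0895 to 0.340. Without WT replicate 3 it remained, at 0.0220, and over the 9 omissions the difference ran from -4.60 to -4.18. TC0200003101.mm.1 lay at 5.87 to 6.21 in KO and 7.67 to 9.29 in WT (limma adjusted p = 0.215). TC0200003099.mm.1 lay at 4.48 to 4.66 in KO, at or below background in all 4 arrays, and at 5.78 to 7.56 in WT (limma adjusted p = 0.820). The remaining probeset overlapped between the groups, at 10.70 to 12.13 in KO and 10.01 to 12.70 in WT. Mastl itself lay at 8.45 to 9.46 in KO and 8.77 to 9.61 in WT, and the pseudogene Gm14441, whose identifier precedes that of Abi1, at 8.95 to 10.03 in KO and 8.84 to 9.11 in WT. The transcripts behind the unnamed probesets, and their strand and position, were not analysed here.

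**Figure D2:**
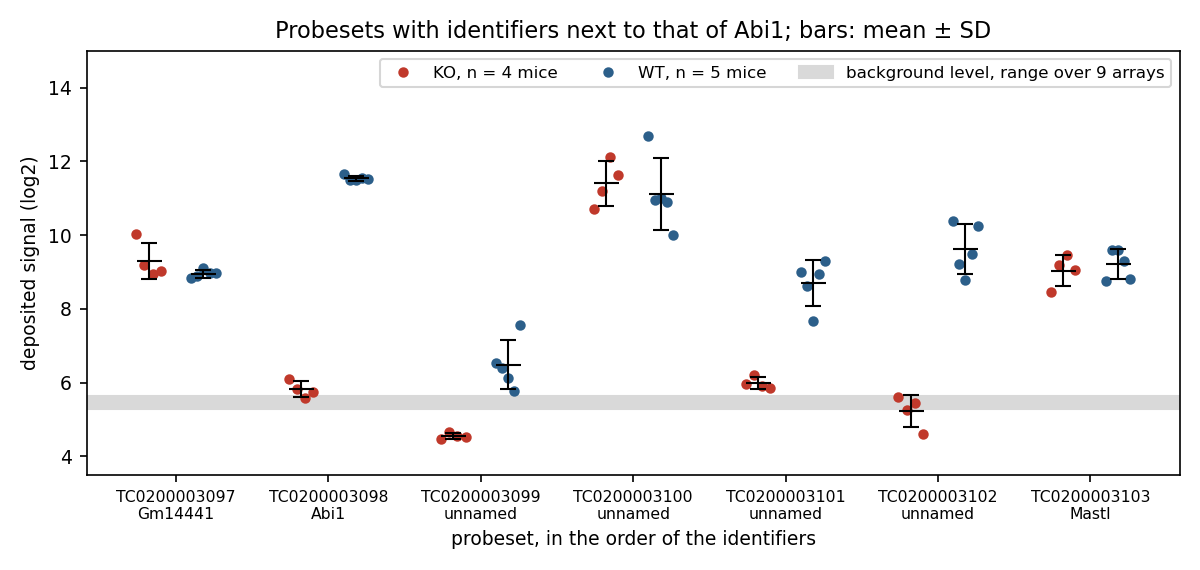
Log2 signal of Abi1, of the 4 unnamed probesets that follow it in identifier order and of the named probesets on either side, with mean and SD for 4 KO and 5 WT arrays; the grey band is the range of the background level. Abi1 and 3 unnamed probesets are lower in every KO array than in any WT array, while Gm14441, TC0200003100 and Mastl overlap.

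The start of Abi1 is shown because the targeted gene anchors the comparison. The 250 bases before the outermost RefSeq start of Abi1 on GRCm38.p6 (chr2:23040242-23040491, minus strand) are printed 5′ to 3′, with motif matches in capitals. The letters searched on both strands were CCAAT, the CCAAT box; the core of a ZNF143 site, the longest of the capital runs; GCATGCGC, the core of an NRF1 site; and CGGAAG, the core of an ETS site. They were chosen after the sequences had been seen, and matches of different motifs do not overlap in the printed windows.
Abi1: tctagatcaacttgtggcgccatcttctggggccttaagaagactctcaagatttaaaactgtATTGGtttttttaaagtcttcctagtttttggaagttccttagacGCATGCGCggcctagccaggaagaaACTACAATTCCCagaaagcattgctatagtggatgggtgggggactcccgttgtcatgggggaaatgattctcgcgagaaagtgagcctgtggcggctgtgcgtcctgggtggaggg
The ZNF143 core begins 117 bases before the start, the NRF1 core 142 and the CCAAT box, read on the other strand as ATTGG, 187. Of 32851 RefSeq windows of this length, 0.871% hold the ZNF143 core, 2.26% the NRF1 core, 33.8% the CCAAT box and 13.6% the ETS core. A match of letters is a description and does not show binding.

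Abi2 encodes the adaptor most like Abi1, and it gave signal in all 9 arrays. Its log2 signals were 10.68, 10.63, 10.69 and 10.56 in KO and 10.67, 10.49, 10.63, 10.89 and 10.63 in WT. The KO values lay within the WT range. KO arrays averaged 10.64 ± 0.059 (SD, n = 4) and WT arrays 10.66 ± 0.14 (SD, n = 5). The difference was -0.022 with a 95% interval from -0.20 to 0.15 (limma adjusted p = 0.932), so the interval holds no change above 0.20 in size on the log2 scale. The sign was positive without KO replicate 4 or WT replicate 4, at 0.0047 and 0.035.

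Abi3, also called NESH, is a further ABI family member that can take the ABI place in the complex. Its log2 signals were 7.16, 7.00, 6.63 and 6.74 in KO and 6.72, 6.34, 6.62, 7.01 and 6.93 in WT. All 9 values exceeded background, and the groups overlapped, with the lowest value in WT replicate 2. The difference was 0.16 (SE 0.16, 95% interval from -0.20 to 0.52, limma adjusted p = 0.788). It was 0.066 without KO replicate 1, 0.24 without KO replicate 3 and 0.063 without WT replicate 2.

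Of the WASF genes, Wasf2 alone was above background. Wasf2 encodes WAVE2, the form described in blood cells, while Wasf1 and Wasf3 are best known from brain. Wasf2 had log2 signals of 11.50, 11.88, 11.70 and 11.69 in KO and 11.71, 11.66, 11.78, 11.75 and 11.81 in WT. The KO arrays held both the lowest and the highest value, and the groups overlapped. The difference was -0.050 (SE 0.073, 95% interval from -0.22 to 0.12, limma adjusted p = 0.834), and 0.015 without KO replicate 1. Wasf1 read 4.31 in all 9 arrays, as 132 genes of the table held a single value throughout. Such a value carries no information on spread between mice. Wasf3 lay at 4.13 to 4.23 in KO and 4.02 to 4.14 in WT, under background in every array, and 5 of the 9 arrays read 4.13. Its difference of 0.057 did not pass (limma adjusted p = 0.786), and no fold is given for signals under background.

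The windows before the starts of the WASF genes are shown because these 3 paralogues differ in whether they gave signal. Each holds the 250 bases before a RefSeq start in the GRCm38.p6 table, plus strand, 5′ to 3′, with the same motifs in capitals. For Wasf2 and Wasf1 this is not the outermost start, and a gene may use other starts. From chr4:133130531 and chr10:40883480 on, their windows lie within the annotated gene.
Wasf2, chr4:133130383-133130632: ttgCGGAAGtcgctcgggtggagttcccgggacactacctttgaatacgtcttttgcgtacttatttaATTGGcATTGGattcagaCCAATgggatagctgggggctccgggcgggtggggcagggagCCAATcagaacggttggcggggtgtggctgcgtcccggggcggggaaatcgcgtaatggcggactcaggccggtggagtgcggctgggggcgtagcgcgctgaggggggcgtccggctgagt
Wasf1, chr10:40883284-40883533: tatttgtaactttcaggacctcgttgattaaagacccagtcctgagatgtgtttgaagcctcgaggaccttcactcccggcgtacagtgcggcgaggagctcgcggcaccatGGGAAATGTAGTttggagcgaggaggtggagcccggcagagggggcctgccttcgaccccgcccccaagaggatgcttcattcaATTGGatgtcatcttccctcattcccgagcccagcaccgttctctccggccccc
Wasf3, chr5:146384756-146385005: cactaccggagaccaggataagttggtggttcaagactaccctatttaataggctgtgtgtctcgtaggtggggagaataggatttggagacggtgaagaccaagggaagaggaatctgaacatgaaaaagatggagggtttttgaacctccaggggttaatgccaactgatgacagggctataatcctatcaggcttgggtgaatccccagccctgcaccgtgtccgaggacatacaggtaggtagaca
The Wasf2 window holds 23 CpG dinucleotides, more than 86.7% of all RefSeq windows, with 4 CCAAT boxes and an ETS core. The Wasf1 window holds 15 CpG dinucleotides, more than 72.7% of windows, with a CCAAT box and a ZNF143 core, as in Abi1. The Wasf3 window holds 5, more than 44.4% and against a median of 6 over all windows, and none of the 4 motifs. For the Abi1 window printed above the number is 9, more than 59.7%. These windows were not tested for a relation to the signals. Of the 10 genes, 6 had a window in the table of RefSeq promoter windows used here, and all 10 are in the RefSeq gene annotation.

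Cyfip2 encodes the subunit that binds Rac. Its log2 signals were 10.90, 11.77, 11.68 and 11.68 in KO and 11.68, 11.68, 11.56, 11.91 and 11.72 in WT. KO replicate 1 was below every other array, and the other 3 KO values lay within the WT range. The difference was -0.20 (SE 0.18, 95% interval from -0.60 to 0.20, limma adjusted p = 0.786). Without KO replicate 1 the group means were equal, and the difference was 0.00. Among 16023 genes above background, 5.83% lay at least as far below the median of the other arrays in KO replicate 1.

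Nckap1l, the scaffold subunit of blood cells, gave signal in all arrays. Its log2 signals were 11.69, 12.87, 12.94 and 13.01 in KO and 12.85, 13.07, 12.32, 12.92 and 12.78 in WT. KO replicate 1 was again the lowest of the 9, and WT replicate 3 the next. The difference was -0.16 (SE 0.29, 95% interval from -0.81 to 0.49, limma adjusted p = 0.859), and it was 0.15 without KO replicate 1. In that array 1.72% of the genes above background lay at least as far below the median of the other arrays. KO replicate 1 also had the highest mean of the neutrophil markers, at 7.92. KO replicate 2, at 7.76 for the neutrophil markers, had Cyfip2 and Nckap1l signals within the WT range. The part of these markers in the low values was not tested.

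Nckap1, the paralogue of Nckap1l, was above background in all 9 arrays as well. Its log2 signals were 7.05, 7.56, 8.00 and 8.05 in KO and 7.79, 8.07, 7.89, 7.54 and 5.68 in WT. WT replicate 5 lay far below all other arrays, and KO replicate 1 was the next lowest. The spread within groups exceeded that of 98.3% of the genes above background. The difference was 0.27 (SE 0.49, 95% interval from -0.85 to 1.39, limma adjusted p = 0.862). Without WT replicate 5 it was -0.16. In WT replicate 5, 0.306% of the genes above background lay at least as far below the median of the other arrays.

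Markers of some other lineages were lowest in the same array. The 7 measured megakaryocyte and platelet markers, all above background, had a mean log2 signal of 9.50 to 9.82 in KO and of 9.33, 9.57, 9.79, 9.13 and 7.47 in WT replicates 1 to 5. The 8 measured erythroid markers, 7 above background and Slc4a1 at or below it throughout, had a mean of 8.36 to 9.10 in KO and of 8.99, 9.20, 8.95, 8.47 and 6.89 in WT replicates 1 to 5. WT replicate 5 was the lowest of the 9 arrays for 7 of 7 megakaryocyte and platelet genes and for 4 of 6 mast cell and basophil genes. It was lowest for 3 of 8 erythroid genes, Klf1, Car1 and Epor, beside 3 of 7 endothelial and 1 of 7 stromal genes. The count was 3 of 8 for monocyte and macrophage, 2 of 10 for neutrophil, 2 of 7 for B cell and 2 of 8 for T and NK cell genes. It was 1 of 10 for LSK markers, 3 of 6 for Arp2/3 and 3 of 8 for Rac and Arf genes. For ABI partners it was 3 of 33, for other nucleation-promoting factors 3 of 12 and for the WAVE genes 2 of 10. The share over all genes was not analysed here. Car1, the erythroid carbonic anhydrase gene, chosen after its values were seen, read 15.40 to 16.86 in KO, 15.64 to 16.99 in WT replicates 1 to 4 and 6.38 in WT replicate 5. Without Car1 the erythroid mean was 7.36 to 8.00 in KO, 7.45 to 8.09 in WT replicates 1 to 4 and 6.96 in WT replicate 5. Of the endothelial markers, 5 of 7 were above background, Cdh5 was at or below it in every array, and the mean was 7.54 to 7.71 in KO and 7.52 to 7.77 in WT, with 7.56 in WT replicate 5. Of the 7 measured stromal markers 3 were above background, with a mean of 5.75 to 6.25 in KO and 5.73 to 6.04 in WT and with Cxcl12, Lepr, Col3a1 and Dcn at or below background in every array. The part of these lineages in the Nckap1 signal was not tested.

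Brk1 encodes the smallest subunit, which is needed to assemble the complex. Its log2 signals were 9.04, 9.30, 9.01 and 9.03 in KO and 8.88, 9.10, 9.01, 8.84 and 8.78 in WT. KO replicate 2 was the highest of all, and the other KO values lay within the WT range. The difference was 0.17 (SE 0.086, 95% interval from -0.023 to 0.37) and did not pass (limma, unadjusted p = 0.0769, adjusted p = 0.786). Without KO replicate 2 it was 0.10.

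**Figure D3:**
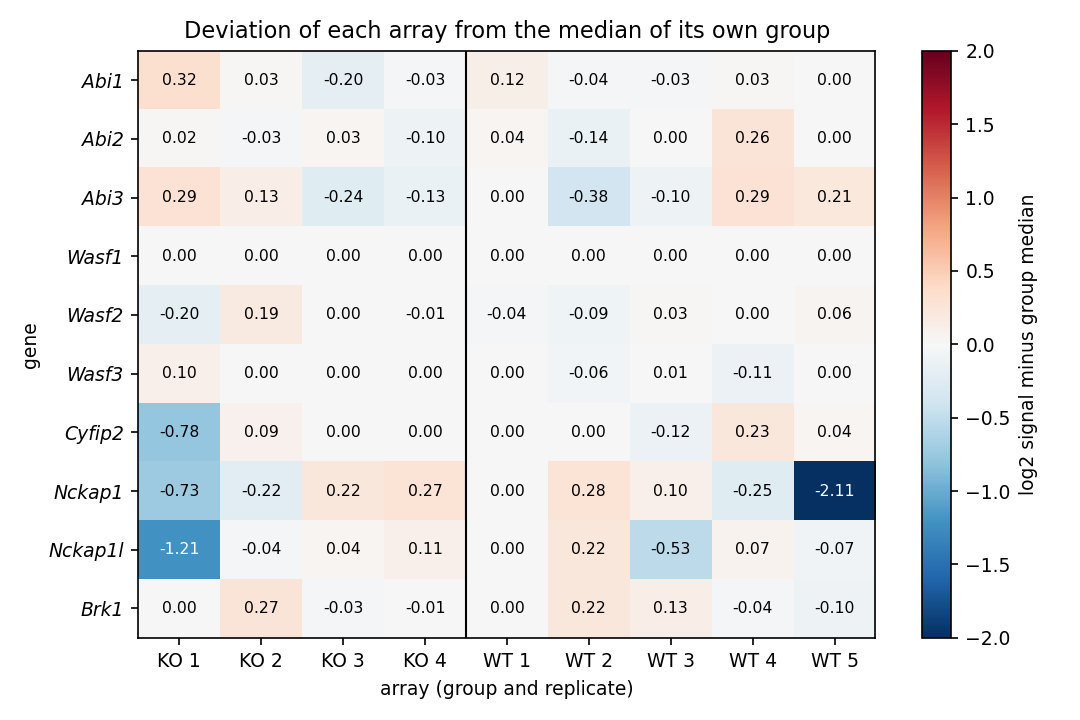
Deviation of each of the 9 arrays from the median of its own group, in log2 signal, for the 10 genes (rows) and arrays (columns, KO left of the line). The deepest value is Nckap1 in WT replicate 5, followed by Nckap1l and Cyfip2 in KO replicate 1.

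Across the set, 1 of 10 genes passed the test, Abi1, which was lower in KO. By mean, 4 of the 10 were higher in KO, 5 lower and Wasf1 equal. The median difference was -0.011 over the 10 genes and 0.00 without Abi1, beside a median of 0.034 over all 30142 genes. Of all genes 63.9% had a higher mean in KO. The groups did not overlap for 1 of the 10 genes, Abi1, and for 0.856% of all genes. The median standard error was 0.12 for genes above background, and Abi2, Wasf2 and Brk1 had smaller ones, of 0.076, 0.073 and 0.086.

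**Figure D4:**
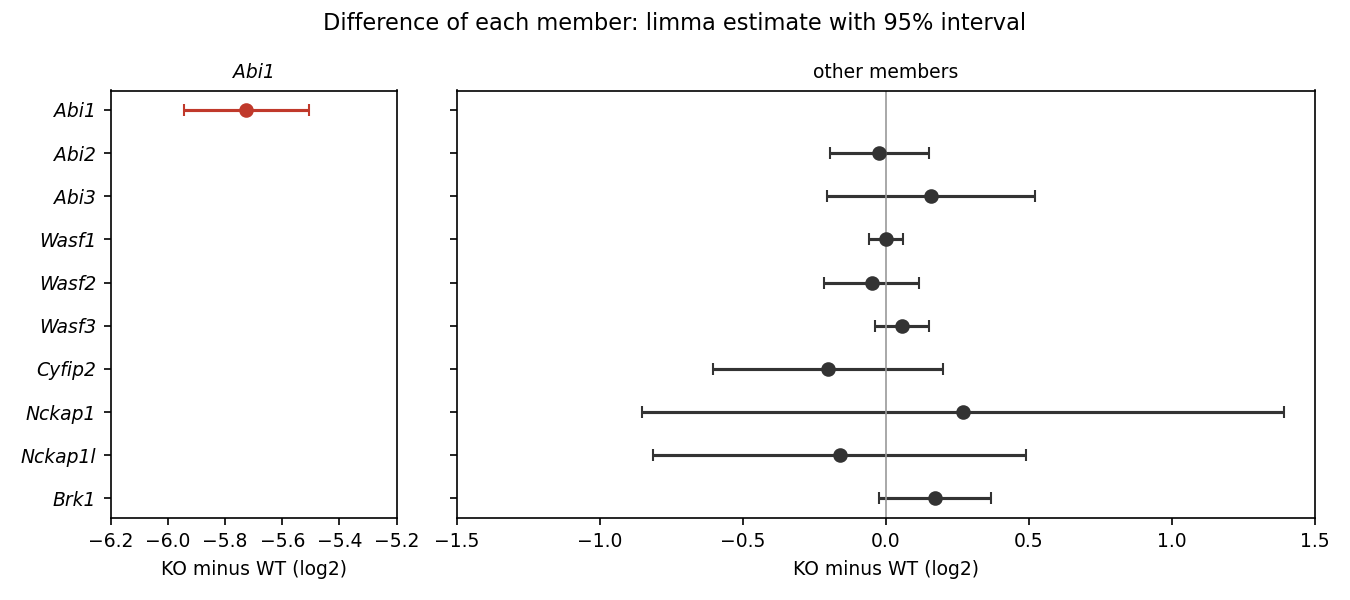
Difference KO minus WT of each gene on the log2 scale, with its 95% interval from limma (4 KO and 5 WT arrays); Abi1 has its own axis range. The Abi1 interval runs from -5.94 to -5.51, and the intervals of the other 9 genes all hold 0, the widest being that of Nckap1.

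Genes that act with the complex were read from lists of upstream GTPases, ABI partners, other nucleation-promoting factors and Arp2/3 subunits. In each list 0 genes passed over all genes tested in either direction. All 8 genes of the list of Rac and Arf GTPases and their relatives were above background, with a median difference of 0.016. Rac and Arf proteins activate the WAVE complex, whereas Cdc42, also on the list, is known as the activator of WASP. Rac3 differed by 0.049 and Rhog by 0.071, while Cdc42 differed by -0.040 and Arf1 by -0.055. Of 33 ABI partners and WAVE regulators 29 were above background, with 12 higher and 20 lower by mean and a median of -0.042. Hsbp1, which encodes a heat shock factor binding protein, differed by 0.45 and Cyrib, a Rac-binding inhibitor of the complex, by 0.14. The Ras activator gene Sos2 differed by -0.19 and the ubiquitin ligase gene Cbl by -0.44. Each of these had a limma adjusted p of at least 0.786. Without KO replicate 1 the differences were nearer 0, at 0.0027 for Rhog, -0.020 for Cdc42, -0.0067 for Arf1, 0.055 for Cyrib and -0.081 for Sos2. Cbl ran from -0.62 without KO replicate 3 to -0.28 without WT replicate 4. Over all alternatives Hsbp1 ran from 0.25 to 0.575. With quantile normalization Cdc42 was -0.15, Cbl -0.60 and Hsbp1 0.28.

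Among 12 genes for other nucleation-promoting factors, 11 of them above background, 7 were higher and 5 lower by mean, with a median of 0.046, and for 3 the limma p before adjustment was below 0.05, as it was for 5.01% of all genes. Was, which encodes WASP, the blood cell relative of the WAVE proteins, had log2 signals of 11.03, 11.20, 10.86 and 10.75 in KO and 10.57, 10.73, 10.75, 10.60 and 10.42 in WT. The KO arrays were at or above the highest WT array, with a shared value of 10.75. The difference was 0.35 (SE 0.10) and did not pass (limma adjusted p = 0.786). Whamm differed by 0.14, Jmy by -0.14 and Washc4, of the endosomal WASH complex, by -0.13, with the same adjusted p, and without KO replicate 1 Whamm was 0.069 and Washc4 -0.085. Of the Arp2/3 genes, 6 of 10 were measured, all above background, with a median of 0.069. Arpc5 lay at 13.58 to 13.77 in KO and 13.29 to 13.57 in WT, without overlap, as did 0.856% of all genes. It differed by 0.24 (SE 0.074, limma adjusted p = 0.786). Arpc4 differed by 0.12 and Arpc2 by -0.024. With quantile normalization Arpc5 was 0.11 and Arpc2 -0.20, and with median centring Arpc4 was 0.061.

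**Figure D5:**
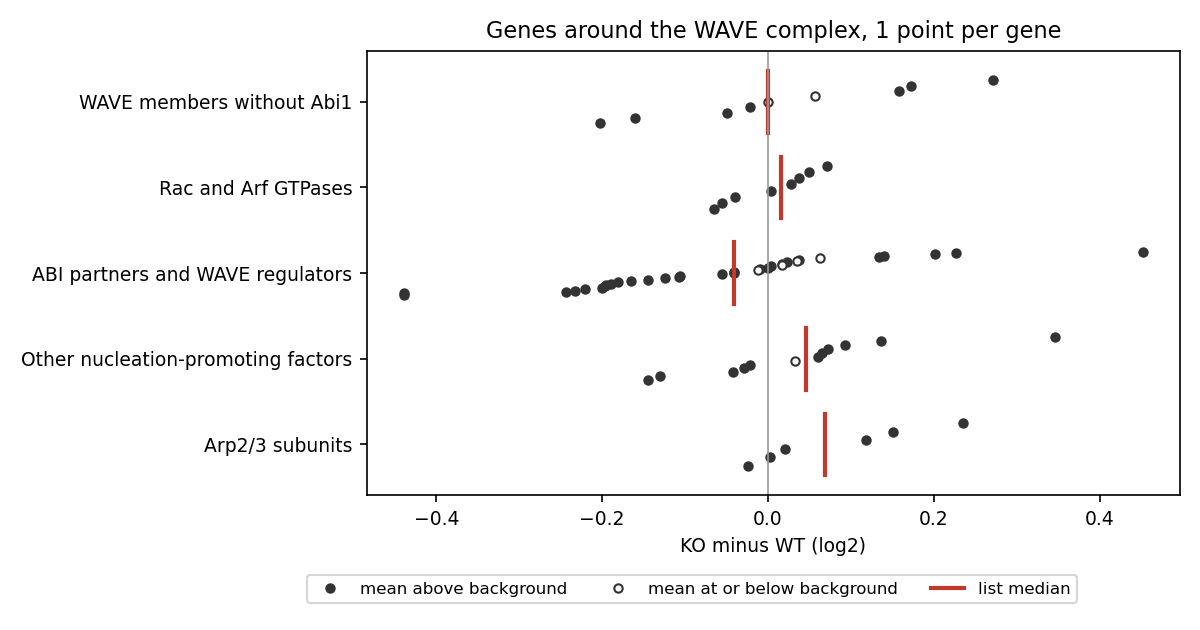
Difference KO minus WT on the log2 scale for each measured gene of the lists (1 point per gene, open where the mean is at or below background), with the median of each list as a bar; Abi1 is left out. The list medians lie between -0.042 and 0.069, and no point passed the test.

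For each gene above background, those most alike were taken as the 3 of 11247 other genes above background, leaving out gene models and small RNA genes by their names and genes with no spread, with the highest Pearson correlation of deviations from the group means over 9 arrays. These are descriptions of 9 arrays and share the arrays that stood apart. Nckap1l was most like Sap130 (r = 0.999), Cbfa2t2 (0.997) and Abca7 (0.994), and Cyfip2 most like Wdr45 (0.986), the kinase gene Jak1 (0.986) and Atp13a1 (0.985). All 6 had their lowest value in KO replicate 1. Nckap1 was most like Mfsd2b (0.994), a lipid exporter gene of red cells and platelets, Ces2g (0.994) and Jcad (0.990). These all had their lowest value in WT replicate 5. Nckap1l and Cyfip2 lay furthest from their group means in KO replicate 1, and Nckap1 in WT replicate 5. Genes chosen for likeness to them share that array by the choice, so the shared lowest array is no separate result. Wasf2 was most like the ETS factor gene Elf1 (0.976), Abi3 most like Kbtbd11 (0.978) and Brk1 most like Dmap1 (0.956). Abi2 was most like Fbln1 (0.943) and Abi1 most like Mras (0.987). The Abi1 deviations were larger in KO arrays (SD 0.22, n = 4) than in WT arrays (SD 0.064, n = 5). In KO its signal was near background, above the 99th percentile of the receptor genes in 0 of 4 arrays.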

How the data were processed

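Biotin-labelled cDNA of LSK cells from 9 mice was hybridised to Affymetrix whole-transcript arrays, per the labels' protocols. The deposited table holds 1 value per probeset and array, read as log2 signal from its range of 1.84 to 19.45. The authors' background correction, summarisation, normalization and log base were not stated in the labels; the submitters' processing notes name Partek 6.6. Of 72688 probesets, 6732 were set aside as controls. Of the remaining 65956, 30604 had exactly 1 symbol, 2146 several and 33206 none. Each of 30142 genes was represented by its brightest probeset, and 827 symbols were updated through Entrez identifiers to RefSeq GRCm38.p6. Promoter windows are credited to the RefSeq table of that build.

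Differences between KO and WT were fitted without covariates (limma 3.58.1, lmFit and eBayes without trend, under R 4.3.3) over all named genes, with Benjamini-Hochberg adjustment, two-sided, at a threshold of 0.05. The fit was tested on simulated data. The replicates are separate mice, and precision is limited by how many arrays there are. The labels give no slide, scan or sort batch. The genes and lists were chosen with earlier results of these data known. All 10 genes were named, and of each list up to 2 genes per direction with the smallest unadjusted p. Quantile normalization, median centring, dim genes left out, all probesets, an intensity trend, array weights, a replicate block and leaving out each array were the alternatives.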

Additional observations from a re-analysis of the deposited data

Results flagged for a closer look

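In groups of 4 or 5 arrays, 11 of 42 groups of values held an array set apart from the rest. Its gap to its nearest neighbour took up an unusually large part of the group's range. The cutoff is set to flag about 1 in 20 groups of independent, normal values. These groups share the same 9 arrays, and some hold tied rounded values, so 11 of 42 cannot be set against that rate. Of the 11 flagged groups, 5 were among the 20 groups of the WAVE genes. KO replicate 1 was set apart for Cyfip2 (10.90, others 11.68 to 11.77), Nckap1l (11.69, others 12.87 to 13.01) and Wasf3 (4.23, others 4.13, all under background). KO replicate 2 was set apart for Brk1 (9.30, others 9.01 to 9.04) and WT replicate 5 for Nckap1 (5.68, others 7.54 to 8.07). Kit was 13.82 in KO replicate 1 (others 14.53 to 14.58) and 14.39 in WT replicate 3 (others 14.70 to 14.78).

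Of the marker means, the B cell list was 5.83 in KO replicate 3 (others 5.91 to 5.92) and the T and NK cell list 5.25 in KO replicate 1 (others 5.07 to 5.09). The megakaryocyte and platelet list was 7.47 in WT replicate 5 (others 9.13 to 9.79), and the stromal list 6.04 in WT replicate 1 (others 5.73 to 5.79).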

How the results depend on the processing

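Abi1 kept its direction and its call in all 17 alternatives, with differences from -5.83 to -5.65 and limma adjusted p from 7.21e-10 to 0.00148. The differences without 1 array ran from -5.82 to -5.65. It was also the 1 WAVE gene past the threshold in each of these 17, and the number of WAVE genes with a mean above background was 8 in all 12 alternatives run for that count. The number of genes past the threshold was 1 in the main comparison and 2 with all probesets tested and with array weights, which gave KO replicate 1 a weight of 0.11. Without 1 array it was 1 in each case.

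Of 151 alternative values for the other 9 genes, 0 passed the threshold and 11 changed sign. Without 1 array, Abi2 ran from -0.065 to 0.035, Wasf2 from -0.11 to 0.015, Nckap1 from -0.16 to 0.48 and Nckap1l from -0.29 to 0.15. Abi3 ran from 0.063 to 0.24, Cyfip2 from -0.29 to 0.00 and Brk1 from 0.10 to 0.22. Array weights gave 0.0055 for Wasf2, 0.10 for Nckap1l, 0.073 for Abi3 and -0.030 for Cyfip2. Median centring gave 0.10 for Abi3. Without both KO replicate 1 and WT replicate 5, chosen after seeing the data, Wasf2 was 0.032, Cyfip2 0.0025 and Nckap1l 0.15. Of 255 alternative values for 15 list genes 0 passed and 6 changed sign: Rac3 was -0.0084 with quantile normalization and -0.0080 with median centring, Rhog -0.0028 and Arpc2 0.0048 with array weights, and Arpc2 0.0058 without both arrays and -0.036 to 0.0073 without 1. The cause was not tested.

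With the replicate block, which drops WT replicate 5 from the difference, Abi1 was -5.73 and Nckap1 -0.16, and no call changed. Deviations of same-numbered arrays correlated at -0.18, 0.15, -0.013 and 0.27 across genes for numbers 1 to 4, so the numbers are not taken as pairs. Quantile normalization and median centring gave medians of -0.0079 and -0.024 for the difference over all genes, beside 0.034 as deposited. Signals under background limit what can be said of Wasf1 and Wasf3.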
